A study of Rattus norvegicus with 6 samples.

Results

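Dual-specificity phosphatases remove phosphate from tyrosine and from serine or threonine, and many of them switch off mitogen-activated protein (MAP) kinases. Here 9 of them, Dusp1, Dusp3, Dusp4, Dusp5, Dusp6, Dusp10, Dusp12, Dusp13b and Dusp16, were followed in rat liver after repeated dosing with tert-butyl alcohol (tBA), an industrial solvent. They were found by matching probe accessions to rat RefSeq symbols, which gave 15 probes of the 61657 non-control probes and 9 genes of 15284 named. The 9 were selected on these same tBA and vehicle measurements, so their differences are given as a description, without a test. Of the 15 probes, 13 were bright enough to be tested in the fit across all probes, and they covered 8 of the 9 genes, each of which was well above background on all 6 arrays; Dusp10 was left untested.

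The tBA group held 3 male Sprague-Dawley rats (Crl:CD(SD), an outbred stock), 5 weeks old at purchase, which received tBA at 1000 mg/kg/day, and the vehicle group held 3 male rats of the same stock and age. All 6 were kept on a basal diet with tap water. The labels disagree on the vehicle, which is purified water for the samples and corn oil in the protocol, and on the length of dosing, 28 days in the series text and 9 weeks in the protocol. Total liver RNA of each animal, labelled with Cy3, was hybridised to its own one-colour Agilent array, so the spread between arrays includes that between animals. Between 61.5% and 66.9% of probes were well above background on an array, and no spot was saturated. Of the tBA arrays, replicate 1 shared slide 1 with all 3 vehicle arrays, while replicates 2 and 3 were on slide 2, which had a scan day of its own. Hepatocyte markers matched the labelled tissue: all 8 were well above background on every array, at a summed signal of 4251 to 4379 times the array's 75th percentile in tBA livers and 4247 to 4553 times in vehicle livers.

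MAP kinase cascades carry signals from growth factors and stress to the nucleus, where they switch on immediate early genes such as Jun and Fos. Several dual-specificity phosphatases are themselves induced by the kinases they inactivate and so form a negative feedback loop. The nuclear, inducible members are Dusp1, Dusp4 and Dusp5, while Dusp6 is cytoplasmic and selective for the kinase ERK, and Dusp10 and Dusp16 act mainly on the stress kinases JNK and p38. Dusp3, Dusp12 and Dusp13b are atypical members, which lack the kinase-binding domain of the others.

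Levels are log2 of the processed signal relative to the array's 75th percentile, so that 0 is that percentile, and a difference is the tBA mean minus the vehicle mean on this scale. Where a gene had several probes, the one with the highest mean signal stood for it. Each SE is that of the limma fit, which borrows variance across probes, so it does not follow from the SDs given. Of the 8 genes tested, Dusp13b was the highest in tBA livers relative to vehicle and Dusp1 the lowest, at differences of 1.48 and -1.57. Dusp5 was lower by a smaller amount, at -0.34, and the other 5 lay between -0.14 and 0.24. Values of the 2 groups did not overlap for 1 gene on the higher side, Dusp13b, and for 2 genes on the lower side, Dusp1 and Dusp5. Among all 11094 genes tested, 12.8% lay apart on the higher side and 11.4% on the lower side. At an adjusted p under 0.05 (limma, Benjamini-Hochberg), 0 of the 13 member probes were called, in a fit that called 0.112% of 37647 probes and 0.0451% of genes. The median of the 8 was -0.049, with 4 higher and 4 lower, and the median over all genes tested was 0.0023. In bulk liver, fewer cells of a type and less RNA per cell cannot be told apart.

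**Figure D1:**
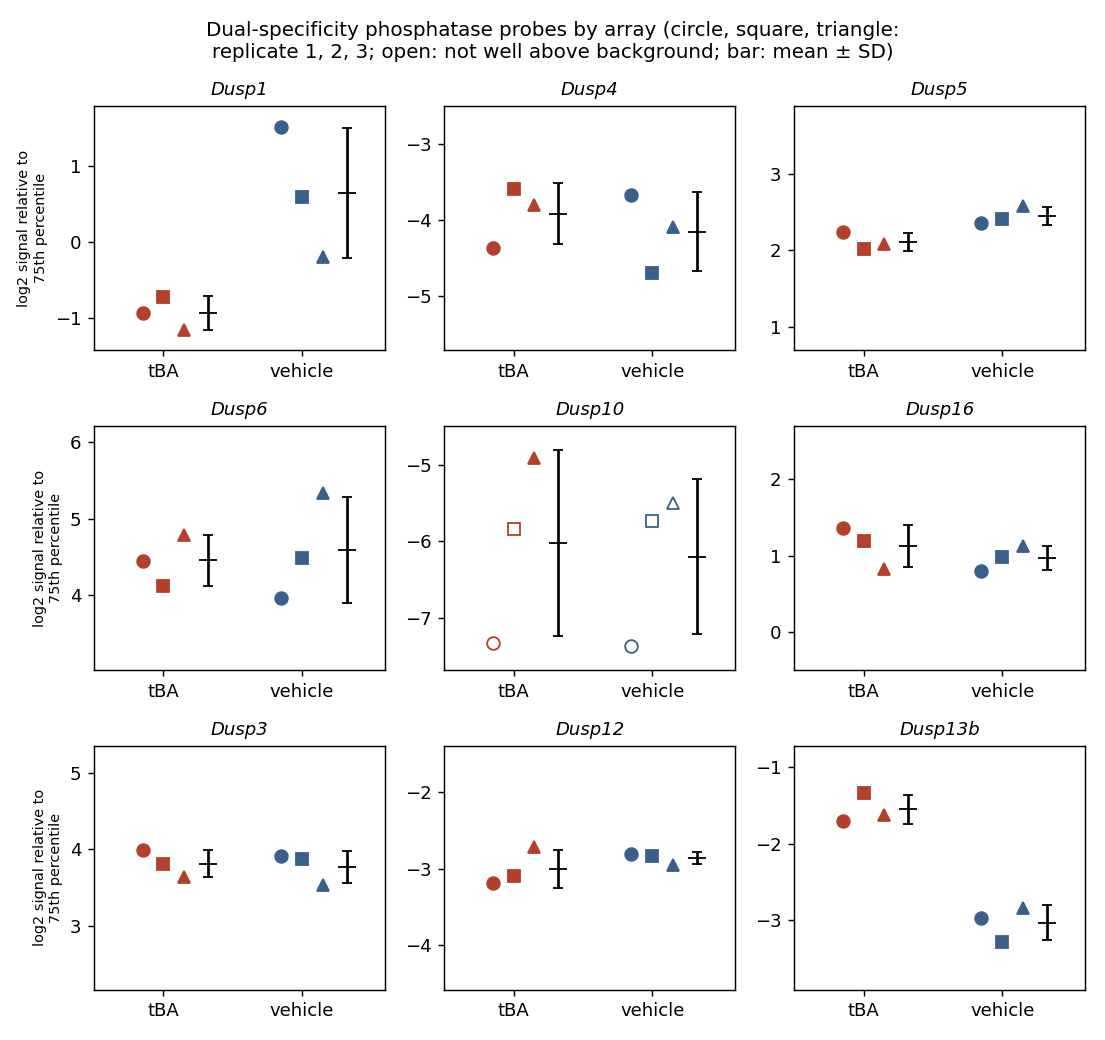
Level of each of the 9 dual-specificity phosphatases by array, as log2 signal relative to the array's 75th percentile (vertical axis), for tBA (left) and vehicle (right) livers. Each panel spans at least 3.2 log2 units, circles, squares and triangles are replicates 1, 2 and 3, open symbols were not well above background, and bars are the mean ± SD of 3 arrays. Dusp13b and Dusp1 have groups that lie apart by the widest margins, and Dusp10 is dim on 5 of 6 arrays.

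Dusp1, also called Mkp1, is an immediate early nuclear phosphatase of p38, JNK and ERK. The tBA livers were at -0.93, -0.72 and -1.15 for replicates 1 to 3, and the vehicle livers at 1.51, 0.60 and -0.19. All 3 tBA values lay below all 3 vehicle values, and the tBA values were close together where the vehicle values were spread out. Means were -0.93 ± 0.22 in tBA livers and 0.64 ± 0.85 in vehicle livers (SD, n = 3 each), a difference of -1.57 (SE 0.41), or a signal 2.97 times as high in vehicle. In processed signal units this was 256 to 347 in tBA livers and 559 to 1690 in vehicle livers. The vehicle SD stood at the 98.2th percentile of all genes tested. On slide 1, tBA replicate 1 minus the vehicle mean was -1.56, and for tBA replicates 2 and 3 on slide 2 it was -1.57. The difference was -1.13 when vehicle replicate 1 was left out and -1.98 when vehicle replicate 3 was. The summed signal of 8 macrophage markers overlapped between groups, at 192 to 199 in tBA livers and 178 to 233 in vehicle livers, and that of 9 T and NK cell markers was 4.01 to 5.41 in tBA livers and 4.56 to 6.39 in vehicle livers. Other marker sums did separate the groups. The 5 endothelial markers with a probe, all above background on every array, summed to 50.9 to 53.3 in tBA livers and 43.2 to 48.8 in vehicle livers, and the 4 B cell markers with a probe, also all above background, to 1.53 to 2.01 in tBA livers and 2.17 to 2.27 in vehicle livers. With each marker weighed equally, as the mean log2 deviation from its vehicle mean, the B cell markers overlapped. They were at -0.15, -1.05 and -0.0017 in tBA livers and -0.39, 0.084 and 0.30 in vehicle livers. The endothelial markers stayed apart on that measure, at 0.11 to 0.17 in tBA livers and -0.041 to 0.079 in vehicle livers. The part of these cell types in the differences of Dusp1, Dusp5 and Dusp13b was not tested.

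The sequences upstream of Dusp1, Dusp5 and Dusp13b are shown because these are the 3 genes whose groups did not overlap. Each runs from 250 bases before to 50 bases after the annotated start, from RefSeq on GRCr8, whereas the array design was annotated on rn4. Capitals mark matches, on either strand, to any of 10 motifs: the cAMP response element (CRE) TGACGTCA and its short form TGACG, the AP-1 site TGACTCA or TGAGTCA, the E-box CACGTG, the ETS site CCGGAAG, the CArG box of serum response factor, the glucocorticoid response element, the TATA box TATAAA, the GC box GGGCGG and the D-box TTATGTAA. A full CRE also counts as 2 short forms. A match describes letters only and is not evidence of binding. Of the 9 genes, 8 are in the promoter table.

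The Dusp1 window lies at chr10:17184603-17184902 on the plus strand. It holds a full CRE that begins 124 bases before the start, a motif found in 1.91% of 27457 promoters of this length, and 1 E-box, found in 6.65%. It also holds 1 further short form and 3 GC boxes, motifs found in 22.0% and 34.9% of promoters. Of the motifs not found in any of the 8 windows, the AP-1 site was in 4.53% of all promoters, the ETS site in 9.22%, the glucocorticoid response element in 0.42%, the TATA box in 14.3% and the D-box in 0.88%.
Dusp1 promoter: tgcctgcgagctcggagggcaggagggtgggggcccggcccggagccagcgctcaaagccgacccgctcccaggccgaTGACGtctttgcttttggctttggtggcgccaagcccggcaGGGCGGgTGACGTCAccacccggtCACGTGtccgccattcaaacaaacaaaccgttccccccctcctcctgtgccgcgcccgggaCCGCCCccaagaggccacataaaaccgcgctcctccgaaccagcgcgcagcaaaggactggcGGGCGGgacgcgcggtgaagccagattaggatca

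Dusp5 is a nuclear phosphatase selective for ERK. The tBA livers were at 2.24, 2.01 and 2.08, and the vehicle livers at 2.36, 2.41 and 2.58. The groups did not overlap, but tBA replicate 1 and vehicle replicate 1 were only a short step apart. Means were 2.11 ± 0.12 in tBA livers and 2.45 ± 0.12 in vehicle livers (SD, n = 3 each), a difference of -0.34 (SE 0.11) or a signal 1.26 times as high in vehicle. With slide as a block, which rests on tBA replicate 1, the difference was -0.20, and for the other tBA arrays it was -0.40.

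The Dusp5 window lies at chr1:262543524-262543823 on the plus strand. It holds 2 CArG boxes side by side, which begin 82 and 72 bases before the start, and a CArG box is present in 1.64% of promoters. It also holds 1 short CRE form and 2 GC boxes.
Dusp5 promoter: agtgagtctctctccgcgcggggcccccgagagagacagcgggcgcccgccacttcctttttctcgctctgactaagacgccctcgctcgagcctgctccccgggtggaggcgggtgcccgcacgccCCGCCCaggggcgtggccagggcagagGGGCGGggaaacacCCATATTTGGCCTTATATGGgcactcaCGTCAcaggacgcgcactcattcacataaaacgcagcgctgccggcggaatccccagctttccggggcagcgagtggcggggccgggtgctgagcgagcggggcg

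Dusp4, also called Mkp2, is a nuclear phosphatase of ERK and JNK. Its brighter probe was at -4.36, -3.59 and -3.80 in tBA livers and at -3.67, -4.70 and -4.09 in vehicle livers. The groups overlapped, with the lowest vehicle value below every tBA value and tBA replicate 1 below both other vehicle values. The difference was 0.24 (SE 0.31), and it turned to -0.21 with slide as a block and within slide 1. On none of the 6 arrays was the second Dusp4 probe well above background.

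Dusp6, also called Mkp3, is the ERK phosphatase of the cytoplasm. The tBA livers were at 4.44, 4.12 and 4.79, and the vehicle livers at 3.95, 4.48 and 5.33. All 3 tBA values fell inside the vehicle range. The difference was -0.14 (SE 0.37), but leaving out vehicle replicate 1 gave -0.46 and leaving out vehicle replicate 3 gave 0.23. Its vehicle SD of 0.70 stood at the 97.1th percentile of all genes, second to Dusp1 among the 8. The vehicle liver with the highest Dusp1 level, replicate 1, had the lowest Dusp6 level. The one with the lowest Dusp1 level, replicate 3, had the highest Dusp6 level. The tBA livers also had opposite orders for these genes. These are orders of only 3 animals in each group, and a relation between the genes was not tested. The Dusp6 window matched 0 of the 10 motifs.

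Dusp16, also called Mkp7, acts on JNK and p38. The 3 probes were all slightly higher in tBA livers, at differences of 0.16 (SE 0.17), 0.42 (SE 0.23) and 0.19 (SE 0.14) from the brightest down to the dimmest. On the brightest probe the tBA livers were at 1.37, 1.19 and 0.82, and the vehicle livers at 0.80, 0.98 and 1.13. The groups overlapped on each of the 3 probes. The difference of the brightest probe was 0.40 for tBA replicate 1 alone, on slide 1, and 0.036 without that array. The Dusp16 window holds 3 GC boxes and 1 short CRE form.

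Dusp10, also called Mkp5, is likewise a phosphatase of JNK and p38. Its single probe was well above background on tBA replicate 3 only, where it was at -4.91. The other arrays were at -7.33 and -5.85 for tBA replicates 1 and 2 and at -7.37, -5.74 and -5.50 for the vehicle livers. At this signal no difference could be read, and no fold is given.

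**Figure D2:**
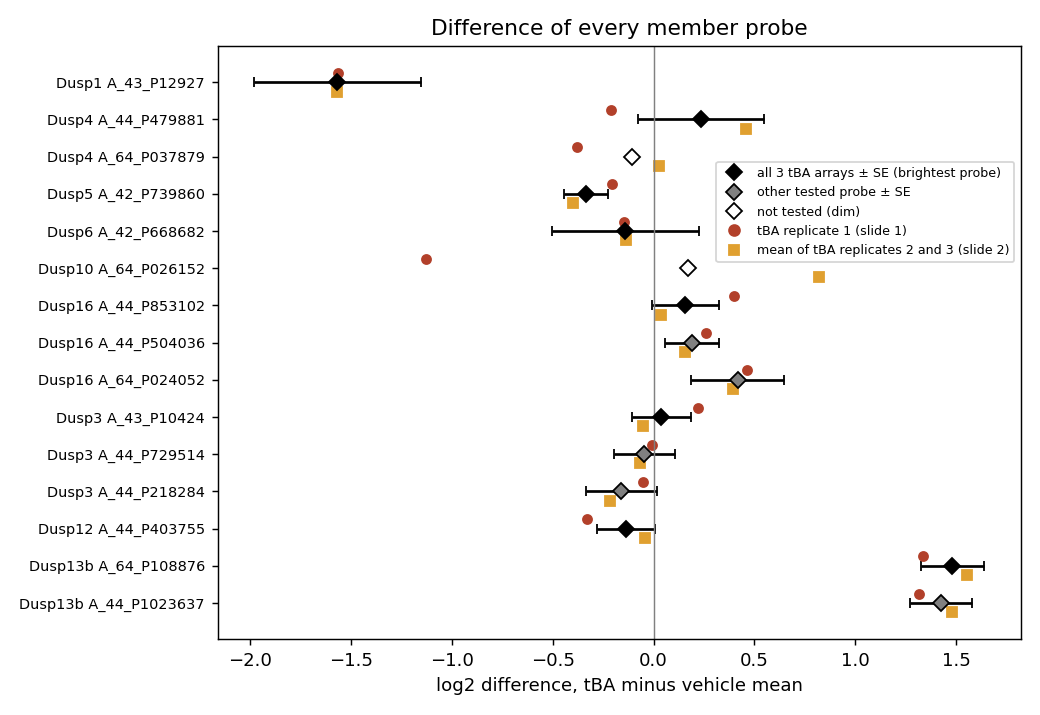
Difference of each of the 15 member probes, as log2 of tBA minus the vehicle mean (horizontal axis), with ± SE for tested probes (diamonds). Circles show tBA replicate 1, which shared slide 1 with the vehicle arrays, and squares the mean of tBA replicates 2 and 3 on slide 2. Circle and square lie on opposite sides of 0 for both probes of Dusp4, for Dusp10 and for the brightest probe of Dusp3. For the other probes, those of Dusp1 and Dusp13b among them, they lie on the same side.

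Dusp13b, also called Dusp13, is an atypical phosphatase known in human tissue from the testis, and its neighbour Dusp13a is known there from skeletal muscle. The brighter probe was at -1.70, -1.34 and -1.62 in tBA livers and at -2.97, -3.29 and -2.84 in vehicle livers. The second probe was at -2.38, -1.97 and -2.45 in tBA livers and at -3.83, -3.65 and -3.59 in vehicle livers. On both probes every tBA value lay above every vehicle value, and tBA replicate 2 was the highest array. Means of the brighter probe were -1.55 ± 0.19 in tBA livers and -3.04 ± 0.23 in vehicle livers (SD, n = 3 each). Its difference was 1.48 (SE 0.16), a 2.79-fold higher signal in tBA livers, and that of the second probe was 1.43 (SE 0.15), a 2.69-fold higher signal. Processed signals of the brighter probe were 180, 225 and 186 in tBA livers and 75.6, 64.6 and 89.0 in vehicle livers, low on the scale of the array but well above background on all 6. The difference was largely kept within slide 1, at 1.34 for tBA replicate 1, the only tBA array there. For tBA replicates 2 and 3 on slide 2 it was 1.56 against the same vehicle mean, from slide 1. For those arrays slide and treatment cannot be told apart. With normexp background correction, which adds an offset of 50 to every signal and so compresses dim probes, the difference over all 6 arrays was 0.90.

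Of 12 skeletal muscle markers, 7 were well above background on all tBA arrays and 8 on all vehicle arrays, while Myh1 and Myh4, myosin heavy chains of fast fibres, were so on none. The summed muscle signal was 1.95, 2.44 and 2.06 times the 75th percentile in tBA livers and 1.88, 1.80 and 2.14 times in vehicle livers. The groups overlapped in this sum, in which tBA replicate 2 was the highest array. The part of muscle RNA in the Dusp13b difference was not tested. The genes on either side of Dusp13b on the GRCr8 assembly, Dusp13a and Dusp29, both encode dual-specificity phosphatases too. Dusp13a was well above background on 1 tBA array and 1 vehicle array and was not tested. The brighter probe of Dusp29 was at -2.89, -4.63 and -4.28 in tBA livers and at -4.07, -4.07 and -3.90 in vehicle livers, with a difference of 0.077 (limma adjusted p = 0.944).

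**Figure D3:**
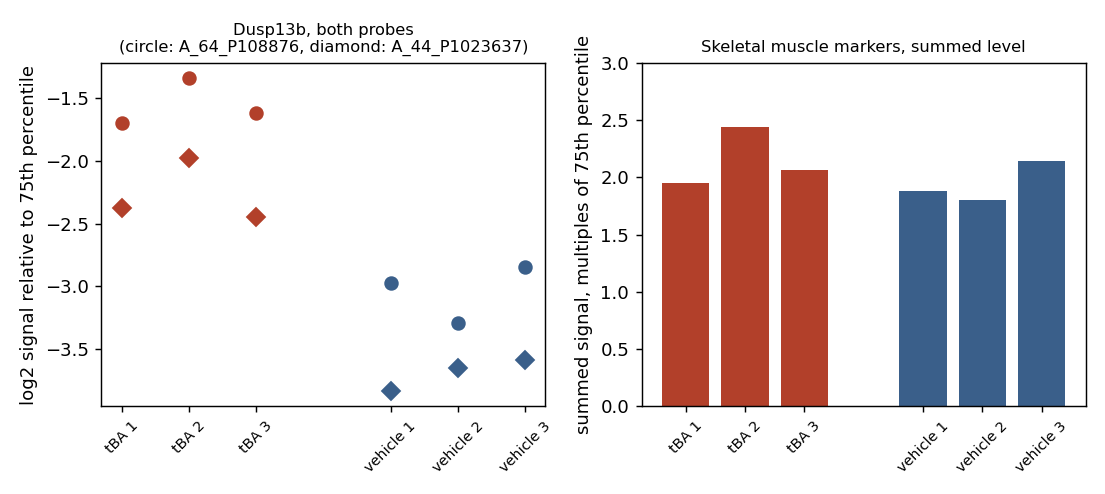
Left, level of both Dusp13b probes by array (log2 signal relative to the 75th percentile), and right, the summed signal of 12 skeletal muscle markers as multiples of the 75th percentile, for tBA (red) and vehicle (blue) livers. Both Dusp13b probes lie higher in all 3 tBA arrays, while the muscle sums of the 2 groups overlap.

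The Dusp13b window lies at chr15:2616511-2616810 on the plus strand. Of the 10 motifs it matched only the E-box, which begins 211 bases before the start. Its 7 CG dinucleotides equal the median of all promoters, where the Dusp1 and Dusp5 windows hold 31 and 32.
Dusp13b promoter: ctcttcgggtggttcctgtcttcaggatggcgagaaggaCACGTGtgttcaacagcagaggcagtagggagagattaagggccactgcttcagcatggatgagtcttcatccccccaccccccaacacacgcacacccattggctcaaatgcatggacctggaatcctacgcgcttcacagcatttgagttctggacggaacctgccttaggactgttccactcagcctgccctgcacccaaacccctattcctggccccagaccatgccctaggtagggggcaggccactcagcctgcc

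Dusp3, also known as VHR, is a small atypical phosphatase of ERK and JNK. Its brightest probe was at 3.99, 3.81 and 3.64 in tBA livers and at 3.92, 3.87 and 3.53 in vehicle livers. The groups overlapped and their order was mixed. Its 3 probes gave differences of 0.039 (SE 0.15), -0.16 (SE 0.18) and -0.047 (SE 0.15), so that they disagreed in sign. Dusp12, an atypical phosphatase with a zinc-binding tail that was isolated from rat as a partner of glucokinase, was at -3.19, -3.09 and -2.72 in tBA livers and at -2.81, -2.83 and -2.95 in vehicle livers. It overlapped too, at a difference of -0.14 (SE 0.14), which was -0.33 on slide 1 and 0.018 with normexp background correction.

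The remaining genes of the family, of the MAP kinase pathway and of the glucocorticoid response were described from 8 lists of 140 genes. Of the 112 tested, limma called 0 in either direction after adjustment, and 16 had an unadjusted p under 0.05, which is 14.3% against 15.1% of all genes tested. Higher values in tBA livers were seen in 55 and lower values in 57. Groups did not overlap for 8 genes on the higher side and 17 on the lower side, beside 12.8% and 11.4% of all genes tested.

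Of 21 other dual-specificity phosphatases, 16 had a probe and 13 were tested, with 7 higher and 6 lower, a median of 0.063 and 0 calls in limma (1 at an unadjusted p under 0.05). This median turned to -0.13 when tBA replicate 1 was left out, to -0.0068 when vehicle replicate 2 was and to -0.021 with normexp background correction. The lowest were Dusp14 at -0.43 (SE 0.17, adjusted p = 0.310) and Dusp18 at -0.34 (SE 0.17, adjusted p = 0.363), and the highest were Dusp8, a phosphatase of JNK and p38, at 0.19 and Styxl1 at 0.18. Among 9 other phosphatases of MAP kinases the median was 0.11, from Ptprr at 0.44 and Ppp2r1b at 0.21 down to Ppm1a at -0.11 and Ppp2r1a at -0.24. For 9 MAP kinases the median was 0.015, with Mapk14, which encodes p38 alpha, at 0.20, against Mapk7 at -0.26 and Mapk11 at -0.32. Among 27 kinases and adaptors upstream it was 0.025, with Map2k7 at 0.28, Sos2 at 0.26, Met at -0.21 and Map3k4 at -0.38. Leaving out 1 array put the median of the MAP kinases between -0.058 (vehicle replicate 2) and 0.098 (vehicle replicate 1), and that of the upstream list between -0.0057 (vehicle replicate 2) and 0.050 (tBA replicate 2). With all tested probes of a gene averaged these medians were -0.081 and -0.024, and with quantile normalization -0.018 and -0.036. For 9 kinases activated by MAP kinases the median was -0.081, with Mknk2 at 0.35, Mapkapk5 at 0.072, Rps6ka2 at -0.22 and Mapkapk3 at -0.38. Under the alternatives it ran from -0.13, without tBA replicate 1, to -0.0076 with median normalization, where the median over all genes was 0.076.

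Immediate early genes and the feedback and output genes of ERK, like the kinases activated by MAP kinases, had medians below 0, again with 0 calls. Of 24 immediate early genes tested, 7 had higher means in tBA livers and 17 lower ones, the median being -0.28, and 7 lay apart on the lower side and 1 on the higher, beside 11.4% and 12.8% of all genes. With slide as a block, which rests on tBA replicate 1, that median was -0.11. The lowest were Gadd45g at -2.29 (SE 0.71, adjusted p = 0.256) and Egr3 at -1.70 (SE 0.74, adjusted p = 0.330), and the highest Gadd45b at 0.65 and Ccn2 at 0.58. Of 10 feedback and output genes of ERK, 3 stood higher and 7 lower, at a median of -0.25. This median was -0.073 with slide as a block, -0.13 without tBA replicate 3, -0.11 without vehicle replicate 3 and -0.13 with normexp background correction. Within that list Ier3 was at -1.37 (SE 0.22, adjusted p = 0.132) and Spry2 at -0.36, against Spry4 at 0.48 and Spred1 at 0.47, and Sprouty and Spred proteins restrain the same pathway as the phosphatases. Glucocorticoids also induce Dusp1, and of 11 genes that respond to them 9 stood higher and 2 lower, at a median of 0.18. Leaving out 1 array turned this median to -0.035 (vehicle replicate 3), or gave 0.044 (tBA replicate 2), 0.40 (vehicle replicate 1) or 0.42 (tBA replicate 3). The 2 lower were Sgk1 at -0.89 (SE 0.19, adjusted p = 0.190) and Nr3c1, the glucocorticoid receptor, at -0.32 (SE 0.076, adjusted p = 0.204), and the highest were Igfbp1 at 0.99 and Fkbp5 at 0.80. Groups lay apart for both lower genes and for 0 of the 9 higher ones, beside 11.4% and 12.8% of all genes.

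**Figure D4:**
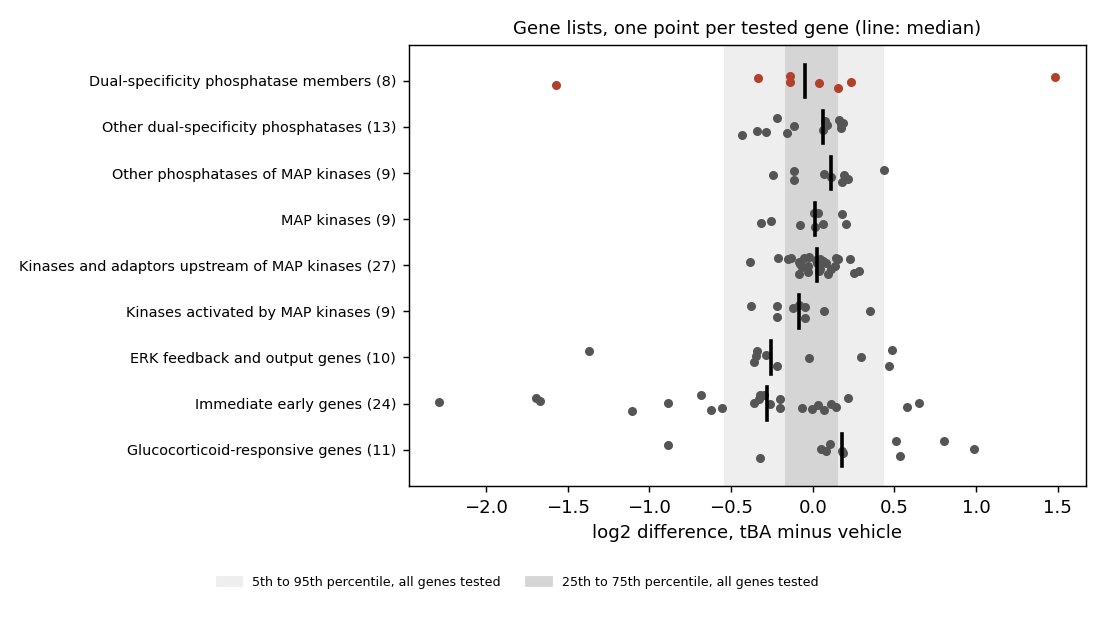
Difference of each tested gene, as log2 of tBA minus vehicle (horizontal axis), in the dual-specificity phosphatases (red) and in 7 lists of the family and the MAP kinase pathway and 1 of glucocorticoid-responsive genes (grey), with the number tested in brackets, a line at each median, and shading for the spread of all 11094 genes. Dusp1 and Dusp13b stand at the ends of the top row, and the kinases lie between -0.38 and 0.35.

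Among 11089 other genes, those with the profile nearest to each of Dusp1, Dusp6 and Dusp13b were found by the root-mean-square distance over the 6 arrays, in log2 units, after each gene was centred on its own mean. The profiles share the same arrays and, for Dusp1 and Dusp13b, a difference between groups, so the distances are a description. Nearest to Dusp1 were the fatty acid desaturase Fads1 (distance 0.28), the isopentenyl diphosphate isomerase Idi1 (0.34) and Jun (0.34). Jun was at 1.74, 2.05 and 1.53 in tBA livers and at 3.75, 3.38 and 3.21 in vehicle livers, a difference of -1.67 (SE 0.19, limma adjusted p = 0.0604). Like Dusp1 it was highest in vehicle replicate 1 and lowest in tBA replicate 3. Nearest to Dusp6 were Neurl3 (0.094), Sertad4 (0.13) and RT1-Bb (0.14), each with vehicle replicate 1 lowest and vehicle replicate 3 highest among the vehicle arrays. Nearest to Dusp13b were the clock activator Npas2 (0.19), Eml1 (0.19) and Lgalsl (0.20). Npas2 was at 0.31, 0.98 and 0.82 in tBA livers and at -0.47, -0.78 and -0.71 in vehicle livers, with tBA replicate 2 the highest and vehicle replicate 2 the lowest, as for the brighter Dusp13b probe.

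**Figure D5:**
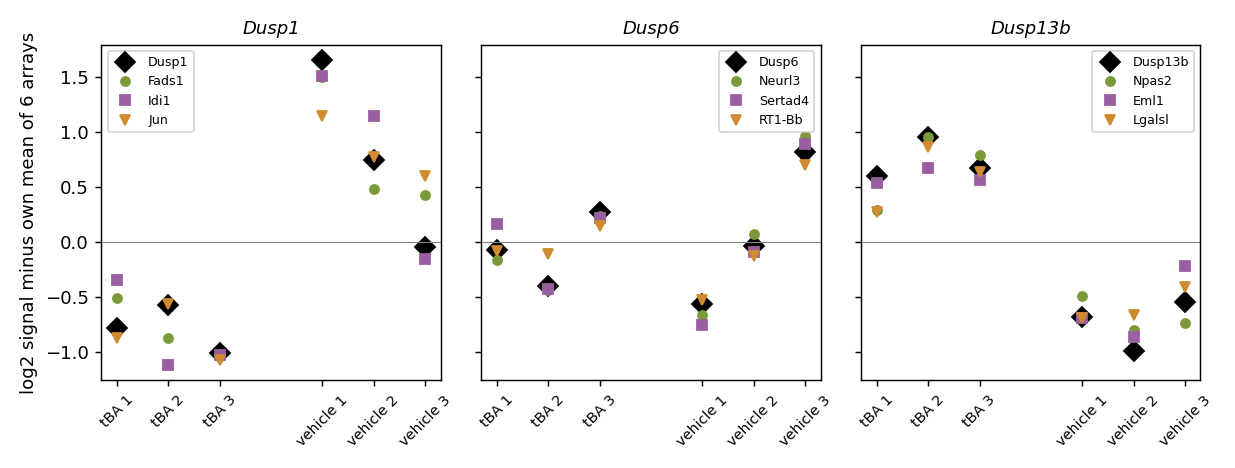
Profiles of Dusp1, Dusp6 and Dusp13b (black diamonds) and of the 3 genes nearest to each, as log2 signal minus the gene's own mean of 6 arrays (vertical axis), for tBA (left) and vehicle (right) replicates. Dusp1 and Dusp13b profiles separate the groups, and the Dusp6 profile varies mainly among the vehicle arrays.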

How the data were processed

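Liver RNA was measured on 6 one-colour arrays, 3 tBA and 3 vehicle. The authors deposited the intensity of each spot as Agilent's scanner software wrote it, background-subtracted (Feature Extraction 10.7 in the submitters' processing notes, 10.7.1.1 per the file headers). They also deposited a linear ratio: dividing processed signals by it gave 1 divisor per array, 570 to 639, close to the 75th percentile. It is not centred per gene, and its column medians were 0.0982, 0.0950 and 0.0952 for tBA and 0.102, 0.102 and 0.0994 for vehicle.

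Here log2 processed signal minus the array's 75th percentile was used, with 3 to 16 outlier spots per array set to missing. A probe entered the fit if it was well above background on each array of 1 group or of both, and these were fitted with limma 3.58.1 in R 4.3.3, with Benjamini-Hochberg adjustment over all of them. Probes were named by accession through RefSeq genes of GRCr8. Members and lists were chosen with earlier results of these data known. List genes named are the 2 highest and 2 lowest of each list, plus any that passed; 1 of these is not reported here. Protein sequences were not used here. The fit was tested on simulated data. Figures used Python 3.11.15 and matplotlib 3.10.9. Alternatives changed background correction, normalization, filter, variance model, slide, replicate block, probe rule and each array in turn.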

Additional observations from a re-analysis of the deposited data

How the results depend on the processing

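With 42 probes called across the array (26 higher and 16 lower), the count was 18 with no filter on dim probes, 0 when only probes bright on all 6 arrays were kept (limma; 5634 at an unadjusted p under 0.05), 68 with an intensity trend, 20 with slide as a fixed block and 0 within slide 1 (2956 unadjusted). Leaving out 1 array gave 6 to 45 calls: it was 6 or 14 when tBA replicate 2 or 3 was dropped, and 22 or 25 when vehicle replicate 1 or 3 was. The median of the tested members, -0.049, was 0.039 with no filter, -0.18 with slide as a fixed block and within slide 1, and -0.078 to 0.075 when 1 array was left out (0.034 without tBA replicate 2 and 0.075 without vehicle replicate 3). In the 8 lists 1 gene was called with normexp background correction and 1 with the intensity trend, in both cases Jun (adjusted p = 0.0292 and 0.0320). With no filter each of the 8 tested members kept its value, and their median changed because the dim Dusp10 was added to the set. The cause of the other changes was not tested, except that slide 1 alone leaves 1 tBA array. Of 144 member values under alternatives, 137 stayed within the spread between arrays and 11 changed sign, in Dusp3, Dusp4, Dusp6 and Dusp12. Dusp1, Dusp5, Dusp13b and Dusp16 kept their sign in the 18 alternatives run for each. Many of these alternatives, which the 137 include, could not change a member's value. The filters, the intensity trend and the replicate block left each tested member as it was, and slide as a block repeats slide 1 alone. Nor can leaving out 1 array turn the sign for Dusp1, Dusp5 and Dusp13b, whose groups did not overlap. Of 144 list medians, 117 stayed within the spread and 14 changed sign, and the medians of the immediate early and ERK feedback lists ran from -0.33 to -0.11 and from -0.28 to -0.073, both nearest to 0 with slide as a block. The replicate number showed no pairing of the arrays. Deviations of same-numbered arrays correlated at -0.056, -0.064 and 0.014, beside -0.058 to 0.11 for differently numbered ones. The fit with the replicate block called 6 probes, but a block also leaves less data to estimate the spread, so that count does not bear on pairing. Dim probes, Dusp10 and the second of Dusp4 among them, are limited by signal over background, and 3 arrays a group limit the rest.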

Other observations

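Outside the 9 genes, Dusp26, an atypical phosphatase, varied widely among animals of each group. Its brighter probe was at -2.17, -1.78 and -4.25 in tBA livers and at -2.07, -5.14 and -0.12 in vehicle livers, well above background on all 6 arrays. The SD was 1.33 in tBA livers and 2.53 in vehicle livers, and on none of the arrays was the second probe well above background. Styxl1, a catalytically inactive relative, also spread in the vehicle group, at -0.51, -0.12 and 0.027 in tBA livers and -0.71, 0.48 and -0.90 in vehicle livers, and its 2 probes had vehicle replicate 2 highest. The glucocorticoid receptor gene Nr3c1 was uniform within groups, at 1.58, 1.56 and 1.56 in tBA livers and 1.87, 1.89 and 1.90 in vehicle livers.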
